A study of Sus scrofa with 18 samples.

Results

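Skeletal muscle mRNA of Hechuan black pigs, a Chinese breed kept here as adult castrated sows, was sequenced as 3 libraries of a group labelled HC-L and 3 of a group labelled HC-P. These 6 libraries are part of a series of 18 samples, whose other 12 hold small RNA from muscle and from muscle exosomes, and the stated purpose of the series was to set an oxidative muscle beside a glycolytic muscle. The labels give the same breed, sex and tissue for both groups, name no treatment that differs between them, and do not say which group is the oxidative muscle, what the letters L and P stand for, or whether the libraries came from separate pigs. The genes described are all 522 genes of the table that the authors deposited for HC-L against HC-P, and every ratio was recomputed from its 6 library columns. The table holds only genes that the authors had selected as different, with an adjusted p-value of at most 0.0498 and an absolute log2 fold change of at least 1.00 in the authors' deposited table. No share of the genome can be read from it, and no further test of the contrast was made on genes already chosen by that contrast.

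Skeletal muscle is built from slow and fast fibres. Slow oxidative fibres are rich in mitochondria, myoglobin and fatty acid oxidation, whereas fast glycolytic fibres rely more on glycogen and on rapid forms of myosin and troponin. Muscles also keep a record of their place in the body through homeobox and related transcription factors, and they switch on immediate early genes, heat shock proteins and genes of the stretched sarcomere within a short time of load, injury or warming. Fat cells lie between the fibres and bring their own transcripts into a whole muscle sample. In such a bulk sample, fewer cells of a type and less RNA per cell cannot be told apart.

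Values are normalised read counts as the authors deposited them, always given for libraries 1, 2 and 3 of a group in that order. They are not divided by gene length, so a level is compared between libraries and never between genes. A log2 ratio is that of the HC-L mean over the HC-P mean after adding 1 to each, so a positive ratio is higher in HC-L, and its error is the standard error of the difference between the group means of log2 values, with 3 libraries a group. Of the 522 genes, 356 or 68.2% were higher in HC-L and 166 or 31.8% were higher in HC-P. Every library of the higher group lay above every library of the lower group for 493 genes, or 94.4%, and for 292 genes after rescaling by the median of ratios over the listed genes. All 29 genes whose groups overlapped were higher in HC-L on average, and in 21 of them HC-L library 3 was the lowest of its group. The gene lists used below were written with earlier results of these data known. The picking could therefore set the share of a list in a direction, also where the share of the table stands beside it.

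With the scaling of the authors, the genes higher in HC-L had a median log2 ratio of 1.90 and those higher in HC-P a median of -1.42. This order of sizes depends on the scaling. After rescaling by the median of ratios over the listed genes, the same sets had medians of 0.81 and -2.45. An absolute log2 ratio of at least 2, which is a 4-fold difference, was reached by 204 genes or 39.1% of the table, made up of 166 or 46.6% of the genes higher in HC-L and 38 or 22.9% of those higher in HC-P. Over the whole table the median absolute ratio was 1.75 on the log2 scale, and it was 1.72 without the 7 genes in which a whole group was listed at 0. Libraries of HC-L were more spread than those of HC-P for 317 genes, with median standard deviations of log2 values of 0.48 and 0.40. The 10 genes with the highest values held 54.6% of the summed value of the table, and 3 of these were genes of the mitochondrial genome.

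**Figure D1:**
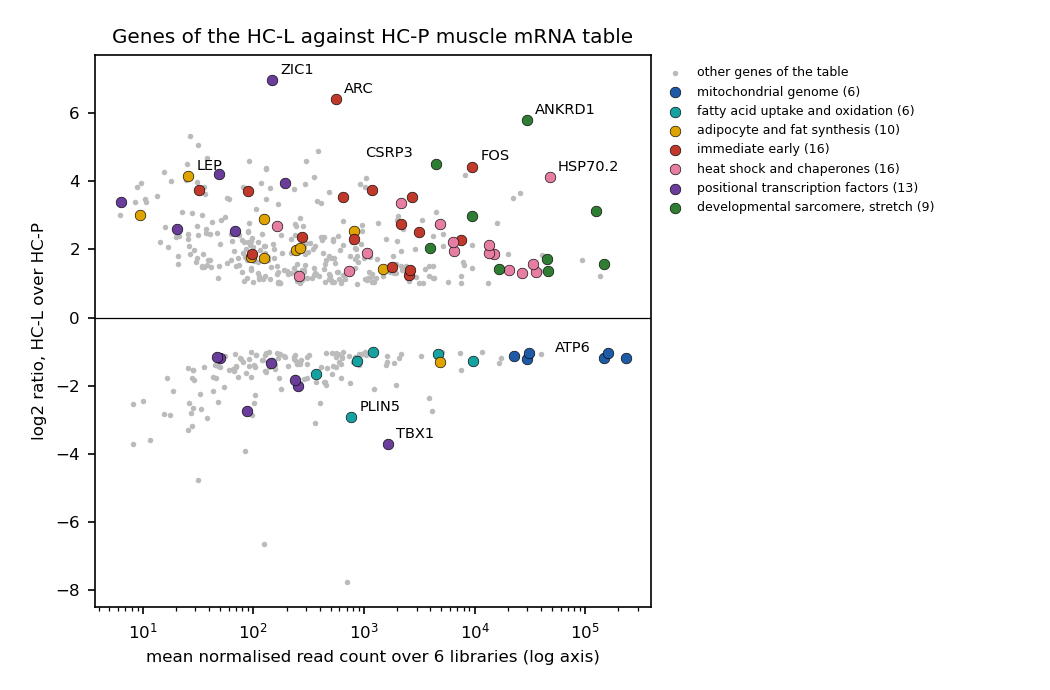
Each point is a gene of the table, with the mean normalised read count over 6 libraries on a log axis and the log2 ratio of HC-L over HC-P on the vertical axis; 515 genes are drawn, without the 7 genes that had a group listed at 0, and coloured points are members of the named lists with the number drawn in brackets. The HC-L side reaches log2 ratios near 7 at low and middle levels, while mitochondrial genes sit toward the right between -1.21 and -1.04.

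Genes of skeletal muscle were present in every library. Filamin C (FLNC), a cross-linker at the Z-disc of the sarcomere, was at 194768, 284958 and 186117 in the HC-L libraries against 59586, 100467 and 62894 in HC-P. The table also held MYF6, a muscle regulatory factor of mature fibres, MUSK, a kinase of the neuromuscular junction, and CHRNE, a subunit of the adult acetylcholine receptor, all higher in HC-L with log2 ratios of 1.53, 1.52 and 1.75.

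Genes that define fibre type were nearly absent from the table. None of 14 genes on a slow fibre list was in it, and of 17 on a fast fibre list only TNNC2 and TPM1 were. Fast skeletal troponin C (TNNC2), the calcium sensor of fast thin filaments, was at 226263, 256100.0 and 85321 in the HC-L libraries against 66651, 105485 and 72032 in HC-P. HC-L libraries 1 and 2 were high, HC-L library 3 was inside the range of HC-P, and the groups overlapped, with a log2 ratio of 1.22 ± 0.54. Tropomyosin TPM1, which covers the thin filament, was at 193184, 183455 and 56382 in the HC-L libraries against 32468, 56800.4 and 43950.5 in HC-P, and again library 3 of HC-L lay among the HC-P libraries. A gene that is not in the table may have been too low, may have missed the authors' thresholds or may carry another name, and these cases cannot be told apart. An unnamed gene described as a myosin heavy chain (ENSSSCG00000017987) was at 267, 773 and 1890.4 in the HC-L libraries against 193, 194 and 169 in HC-P, all 3 HC-L libraries above all HC-P libraries. Its log2 ratio of 2.39 was 1.48 without HC-L library 3.

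Respiratory chain transcripts in the table came mostly from the mitochondrial genome, and those were higher in HC-P. Of its 13 protein genes, 6 were listed, namely ATP6 of ATP synthase, CYTB of complex III and ND1, ND2, ND3 and ND4 of complex I. All 6 were higher in HC-P, beside 31.8% of the table, with log2 ratios between -1.21 and -1.04 and a median of -1.16. None of the 6 overlapped, which held for all 166 genes higher in HC-P. Those 166 genes had a median absolute log2 ratio of 1.42. ATP6 was at 97112, 172245 and 154121 in the HC-L libraries against 415575, 336916 and 218427 in HC-P. Its lowest HC-P library was 3 and its lowest HC-L library was 1, and the log2 ratio was -1.20 ± 0.37. ND4 was at 75617, 108609 and 84621 in the HC-L libraries against 270794, 211821 and 135832 in HC-P, again with the highest HC-P value in library 1 and the lowest HC-L value in library 1, and CYTB was at 79545, 131681 and 99352 in the HC-L libraries against 271270.0, 232257 and 141990.0 in HC-P. HC-L library 1 was the lowest and HC-L library 2 the highest of HC-L in 6 of these 6 genes, and HC-P library 3 was the lowest of HC-P in 5. An unnamed gene described as a subunit of the same complex I (ENSSSCG00000035520) was also higher in HC-P, at 19573, 32201 and 25043 in the HC-L libraries against 68760.1, 57374 and 34490.5 in HC-P. No source used here gives how the authors assigned reads shared between mitochondrial genes and their nuclear copies.

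Nuclear genes of the same machinery were few and did not share a direction. Of 80 nuclear genes of oxidative phosphorylation, 2 were in the table. UQCRFS1, the iron-sulphur protein of complex III, was higher in HC-P at 8440.5, 6210.3 and 5721, against 2361, 2649 and 5025 in HC-L, with HC-L library 3 close to the lowest HC-P library. COX6A2, the striated muscle form of a cytochrome oxidase subunit, was higher in HC-L with a log2 ratio of 1.22 ± 0.55. Of 23 genes on a tricarboxylic acid cycle list, MDH1 (cytosolic malate dehydrogenase, log2 ratio -1.17) and PDP1 (a phosphatase that activates pyruvate dehydrogenase, -1.20) were in the table. Both were higher in HC-P, beside 31.8% of the table, and neither is an enzyme of the mitochondrial cycle itself.

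Other mitochondrial proteins were gathered into a list after their values had been seen, and 9 of 13 were higher in HC-P. The picking could set that share, so it cannot be read against the 31.8% of the table. The list included the DNA polymerase POLL, whose place in mitochondria was not checked. COQ8A, needed for the synthesis of coenzyme Q, was at 8496, 10585 and 12447 in the HC-L libraries against 24984, 26409.6 and 20574 in HC-P, which separated the groups in every library, with a log2 ratio of -1.19 ± 0.19. CHCHD10, a protein of the cristae junctions, was at 6093, 6865 and 10444 in the HC-L libraries against 17419.9, 15226 and 14633 in HC-P, with HC-L library 3 the highest of its group. MTFP1, which acts in mitochondrial fission, MUL1, a ubiquitin ligase of the outer membrane, SLC25A22, a glutamate carrier, and ENDOG, a mitochondrial nuclease, had log2 ratios of -1.27, -1.15, -1.26 and -1.44. The 4 members higher in HC-L included the fission receptor FIS1, at 1153, 1172 and 1044 in the HC-L libraries against 158, 554 and 572 in HC-P, and MPV17, which maintains mitochondrial DNA, with a log2 ratio of 1.81 ± 0.40.

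Genes that take up and burn fatty acids were higher in HC-P. Of 45 genes on the list, 6 were in the table, 6 of 6 were higher in HC-P, beside 31.8% of the table, and their median log2 ratio was -1.27. All genes of the table higher in HC-P had a median absolute log2 ratio of 1.42. None of the 6 overlapped, which held for all 166 genes higher in HC-P. PLIN5 coats lipid droplets that touch mitochondria, and it was at 84.4, 46.0 and 404 in the HC-L libraries against 1458, 1333 and 1283 in HC-P. HC-L library 3 was several times higher than the other HC-L libraries and still below every HC-P library, and the log2 ratio of -2.92 ± 0.93 was the most negative of the list. MLYCD, which degrades malonyl-CoA and so frees the entry of fatty acids into mitochondria, was at 108, 129 and 298 in the HC-L libraries against 359.9, 619.7 and 720.5 in HC-P. CPT2, the inner membrane carnitine palmitoyltransferase, was at 371, 352 and 795 in the HC-L libraries against 1359, 1119 and 1169 in HC-P, and HC-L library 3 was again the highest of its group.

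Lipoprotein lipase (LPL), which releases fatty acids from circulating triglyceride, was at 4987, 3469 and 8359 in the HC-L libraries against 11951, 12873 and 15995 in HC-P, with a log2 ratio of -1.28 ± 0.39. ACSL1, which couples fatty acids to coenzyme A, and the transporter SLC27A1 had log2 ratios of -1.06 ± 0.20 and -1.02 ± 0.14. The tightest separation of the 6 was that of SLC27A1, at 792, 894 and 732 in the HC-L libraries against 1584, 1875 and 1454 in HC-P. An unnamed gene described as CD36, a fatty acid transporter (ENSSSCG00000015405), was higher in HC-P as well, at 3545, 4048 and 6816 in the HC-L libraries against 9916, 8919.5 and 10868 in HC-P. PNPLA2, the first lipase of stored triglyceride, was at 2269, 3241 and 2903 in the HC-L libraries against 7686, 7092 and 5832 in HC-P, a log2 ratio of -1.29 ± 0.19, and FITM2, which acts in lipid droplet formation, had a ratio of -1.04. Their relatives went the other way. The PNPLA2 activator ABHD5 was at 224, 601 and 1496 in the HC-L libraries against 223, 251 and 209 in HC-P, where HC-L library 3 carried most of the difference, HC-L library 1 lay among the HC-P libraries, and the log2 ratio of 1.76 was 0.86 without HC-L library 3. FITM1 was higher in HC-L with a ratio of 1.31 ± 0.33.

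Fat synthesis and fat cell genes were higher in HC-L. Of 31 genes on the list, 10 were in the table, and 9 of these 10 were higher in HC-L, beside 68.2% of all genes, with a median log2 ratio of 2.02 for the 10. SCD, the desaturase that makes monounsaturated fatty acids, was at 998, 1520.2 and 1651 in the HC-L libraries against 222, 238 and 251 in HC-P, an even difference in all libraries with a log2 ratio of 2.55 ± 0.23. Fatty acid synthase (FASN) was at 1823, 3053 and 1709.8 in the HC-L libraries against 841, 841 and 758 in HC-P, and the elongase ELOVL6 was at 185, 232 and 167 in the HC-L libraries against 43.0, 69.8 and 59.7 in HC-P. THRSP, a lipogenic nuclear protein, was at 225, 279 and 155 in the HC-L libraries against 5.37, 48.6 and 32.6 in HC-P, and HC-P library 1 was the lowest of its group.

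The hormone leptin (LEP), made by fat cells, was at 39.2, 88.3 and 22.7 in the HC-L libraries against 0.895, 1.06 and 3.62 in HC-P, and all HC-P libraries were near the lowest values of the table, with a log2 ratio of 4.16 ± 0.69. Adiponectin (ADIPOQ), another hormone of fat cells, was at 141, 682 and 338 in the HC-L libraries against 59.1, 121 and 110.4 in HC-P. PLIN1, the main coat of the fat cell droplet, was at 171, 776 and 329 in the HC-L libraries against 26.9, 145 and 136 in HC-P. CIDEC, which fuses droplets, was at 56.2, 271 and 117 in the HC-L libraries against 27.8, 50.8 and 48.0 in HC-P. HC-L library 2 was the highest in these 4 genes and in 9 of the 10 genes on the list. Without it the log2 ratios of ADIPOQ, PLIN1 and CIDEC were 1.297, 1.28 and 1.02, instead of 1.99, 2.04 and 1.79.

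As a check for fat cells in the muscle, 5 of 8 fat cell markers were in the table. ADIPOQ, PLIN1, LEP and CIDEC were higher in HC-L and LPL, which fibres also express, was higher in HC-P. Their summed value ranged over 5286 to 9165 in the HC-L libraries and over 12065 to 16293 in those of HC-P, a sum made up mostly of LPL, and none of the 5 was at 0 in any library. Whether the number of fat cells took part in the differences of the lipogenic genes was not tested. Markers were matched by symbol, so genes without a symbol were not counted. By symbol, none of the marker lists of endothelial cells, fibroblasts, macrophages and neutrophils, lymphocytes, red cells, Schwann cells or satellite cells had a member in the table. Of 7 smooth muscle and pericyte markers, TAGLN was higher in HC-L and NOTCH3 was higher in HC-P, with log2 ratios of 2.23 and -1.01. The red cell markers include the haemoglobin genes HBA and HBB. A pair of unnamed genes described as alpha-type and beta-type haemoglobin (ENSSSCG00000007978 and ENSSSCG00000014727), which the matching by symbol missed, was higher in HC-P. The first was at 72.3, 58.1 and 109.8 in the HC-L libraries against 266, 227 and 203 in HC-P. The second was at 17.1, 9.68 and 15.4 in the HC-L libraries against 108, 82.5 and 57.9 in HC-P.

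**Figure D2:**
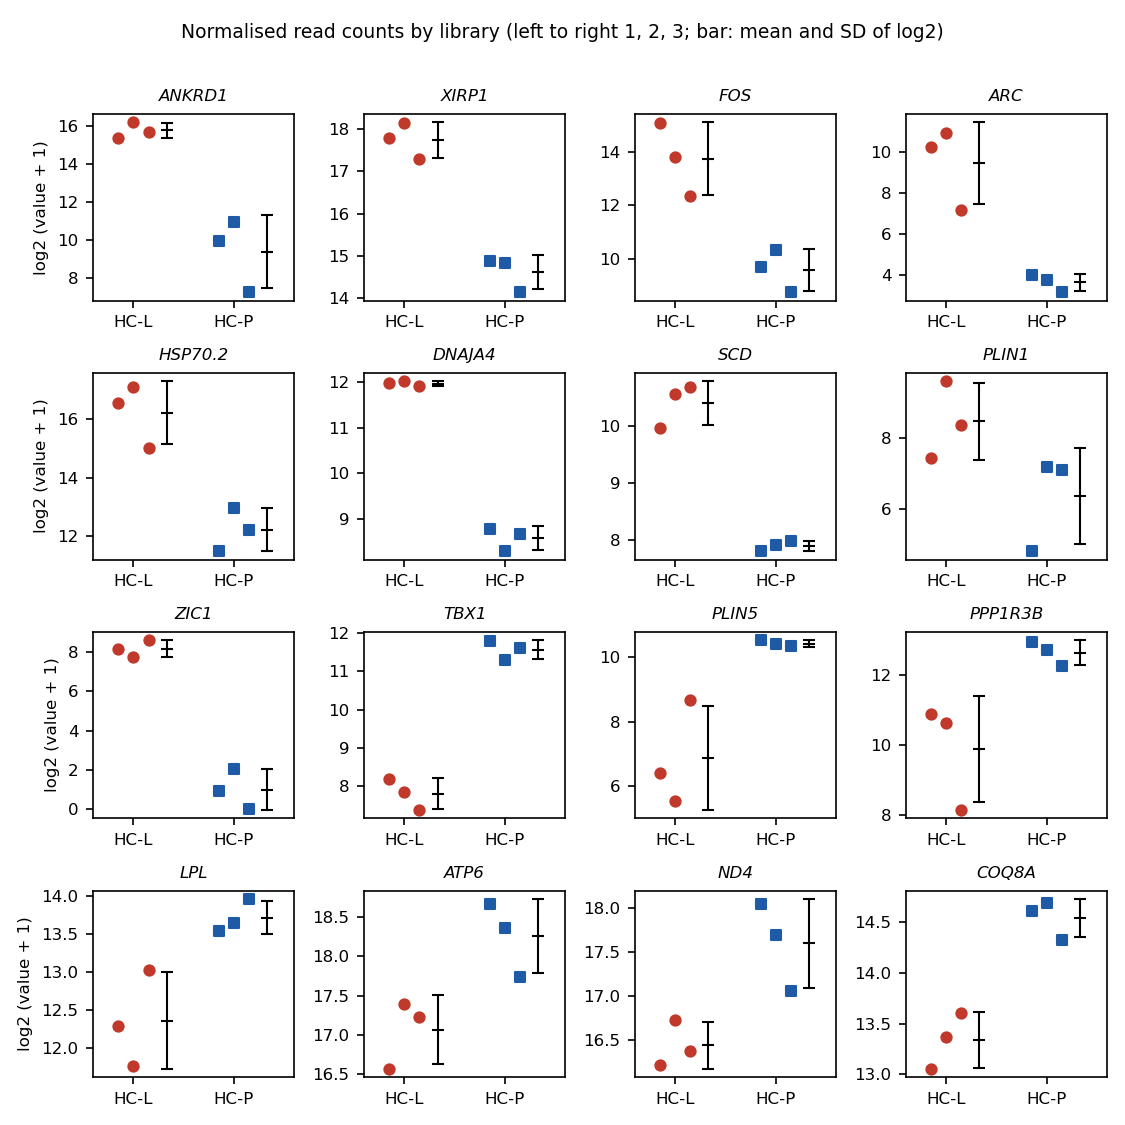
Values of 16 genes in each library, as log2 of the normalised read count plus 1, with HC-L as red circles and HC-P as blue squares, libraries 1 to 3 from left to right and the mean with its standard deviation beside them; each panel has its own axis, which does not start at 0. The groups do not overlap in any of the 16 panels, nor in 94.4% of the genes of the table. HC-L library 3 stands apart from its group in ARC, PLIN5 and PPP1R3B.

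Sugar metabolism was represented by few genes, most of them glycogen regulators. Of 28 glycolysis genes, 2 were in the table. SLC2A5, a fructose transporter, was at 85.4, 35.1 and 341 in the HC-L libraries against 691, 554 and 489.7 in HC-P, and its log2 ratio of -1.90 was -3.24 without HC-L library 3. ALDOC, an aldolase best known from brain, was at 72.3, 432 and 209.6 in the HC-L libraries against 59.1, 63.4 and 86.9 in HC-P, with overlapping groups, and its ratio of 1.75 was 1.004 without HC-L library 2. An unnamed gene described as the glucose transporter GLUT3 (ENSSSCG00000022925) was higher in HC-L, at 915, 911 and 793 in the HC-L libraries against 189, 209 and 150.2 in HC-P.

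Of 22 glycogen genes, 3 were in the table, and all are subunits that bring protein phosphatase to glycogen. They were split in direction. PPP1R3B was at 1909, 1605 and 284 in the HC-L libraries against 7938, 6749 and 4879 in HC-P, far lower in HC-L library 3 than in any other library, with a log2 ratio of -2.36 ± 0.90. PPP1R3D was also higher in HC-P, with a ratio of -1.03 ± 0.23, and so was PPP1R3G, a relative not on the list, with -1.31 ± 0.45. PPP1R3C was at 7622, 4931 and 4666 in the HC-L libraries against 2079, 2233 and 1753 in HC-P, higher in every HC-L library, with a ratio of 1.505 ± 0.25.

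Listed genes of the sarcomere under stretch were higher in HC-L. Of 23 genes on a list of cardiac, developmental and stretch-responsive sarcomere genes, 9 were in the table and 9 of 9 were higher in HC-L, beside 68.2% of the table. The 9 had a median log2 ratio of 2.04, beside 1.90 for all genes of the table higher in HC-L. The groups did not overlap in 7 of these 9, beside 94.4% of the table. ANKRD1, an ankyrin repeat protein that binds titin in the I-band, was at 43595, 76460.3 and 54171 in the HC-L libraries against 994, 1971 and 150.2 in HC-P. HC-P library 3 was the lowest of its group and the groups were far apart, with a log2 ratio of 5.80 ± 1.13 or 55.9-fold. XIRP1, an actin-binding Xin protein of the myotendinous junction, was at 226132, 288290.0 and 161318 in the HC-L libraries against 29861, 29026 and 18036 in HC-P, a log2 ratio of 3.13 ± 0.34.

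CSRP3, the muscle LIM protein of the Z-disc, was at 1437, 2535 and 21935 in the HC-L libraries against 57.3, 394 and 678 in HC-P. HC-L library 3 was several times above the other HC-L libraries, and the log2 ratio of 4.52 was 2.40 without it. Its stretch-responsive companion ANKRD2 was at 1762, 5566 and 11881 in the HC-L libraries against 1160.2, 1517 and 1996 in HC-P, where HC-L library 1 overlapped the HC-P range and the ratio of 2.04 was 1.23 without HC-L library 3. KLHL40 and KLHL41, which stabilise thin filament proteins, had ratios of 2.98 ± 0.43 and 1.35 ± 0.17. ABRA, which couples actin to serum response factor, had 1.43 ± 0.18, FLNC had 1.58 ± 0.31, and XIRP2 had 1.71 ± 0.64 with overlapping groups.

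Several muscle regulators and actin genes outside that list were higher in HC-L too. RRAD, a small GTPase that restrains calcium channels, was at 31149.9, 73810.4 and 38669 in the HC-L libraries against 3072, 4799 and 3474 in HC-P, which separated the groups in every library with a log2 ratio of 3.66 ± 0.42. ENAH, which extends actin filaments, was at 10350.2, 19859.8 and 16613 in the HC-L libraries against 916, 1101 and 572 in HC-P, a ratio of 4.18 ± 0.40. NRAP, which anchors growing myofibrils, had a ratio of 1.84 ± 0.44. Of 30 genes of myogenic control and atrophy, MYF6, MSTN and GADD45A were in the table. MYF6 was at 16138, 12346 and 7657 in the HC-L libraries against 5127, 3626 and 3723 in HC-P. Myostatin (MSTN), the hormone that limits muscle growth, was at 484, 466 and 92.6 in the HC-L libraries against 124, 85.7 and 66.1 in HC-P, with HC-L library 3 inside the HC-P range.

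A pair of kinases of the myosin light chain was higher in HC-P, beside 31.8% of the table. The pair was named after its values had been seen, so the picking could set that result. MYLK3, the cardiac member, was at 22.1, 1.21 and 5.45 in the HC-L libraries against 352, 75.1 and 51.6 in HC-P. HC-P library 1 was well above the others of its group, and the log2 ratio of -3.92 was -2.60 without it. MYLK4 was at 76.3, 88.3 and 64.4 in the HC-L libraries against 885, 687 and 389 in HC-P, a more even difference with a ratio of -3.08 ± 0.37.

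Immediate early genes, which are transcribed within minutes of a stimulus, were higher in HC-L throughout. Of 37 genes on the list, 16 were in the table, 16 of 16 were higher in HC-L and 15 did not overlap, beside 68.2% and 94.4% of the table. The list was written with earlier results of these data known, so the picking could set these shares. The median log2 ratio of the 16 genes was 2.63, beside 1.90 for all genes of the table higher in HC-L. FOS, a subunit of the transcription factor AP-1, was at 34679, 14489 and 5191 in the HC-L libraries against 817, 1274 and 427 in HC-P, widely spread in HC-L and still apart from HC-P, with a log2 ratio of 4.43 ± 0.91. Its relative FOSB was at 4579, 1438 and 551 in the HC-L libraries against 369.7, 94.1 and 19.0 in HC-P, and EGR1, a zinc finger factor, was at 6741, 7155 and 1006 in the HC-L libraries against 434, 713 and 134 in HC-P. ARC, best known from neurons as a synaptic activity gene, was at 1198, 1956 and 146 in the HC-L libraries against 15.2, 12.7 and 8.15 in HC-P, with the largest ratio of the list at 6.40 ± 1.17 and HC-L library 3 far below the other HC-L libraries.

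Brakes of signalling belonged to the same group. DUSP1 and DUSP5, phosphatases of MAP kinases, had log2 ratios of 2.27 ± 0.51 and 3.71 ± 0.23, and DUSP5 had the narrowest spread of the list at 149, 135 and 222 in the HC-L libraries against 13.4, 11.6 and 10.9 in HC-P. SOCS3, which dampens cytokine receptors, had 3.52 ± 0.60. MYC was at 1705, 1172 and 1157 in the HC-L libraries against 506, 143 and 167 in HC-P. MAFF, a small partner of AP-1 type factors, was at 5293, 2972 and 3156 in the HC-L libraries against 2605, 784 and 969 in HC-P, and its ratio of 1.39 was 2.12 without HC-P library 1. CCN1, a secreted matrix protein, was the member whose groups overlapped, at 4100.1, 4822 and 1909 in the HC-L libraries against 1991, 1553 and 1001 in HC-P. HC-P library 1 was the highest of HC-P in 12 of the 16 genes, and HC-L library 3 was the lowest of HC-L in 11.

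OTUD1, a deubiquitinating enzyme that is not on the list, was at 72836, 36839.9 and 13850.5 in the HC-L libraries against 7053, 2193 and 1503 in HC-P, with library 1 the highest in both groups, and its log2 ratio was 3.52 ± 0.97. NFIL3, a repressor with a daily rhythm in many tissues, was the only member of 18 circadian clock genes in the table, with a ratio of 2.32 ± 0.56.

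Heat shock proteins and chaperones were higher in HC-L as well. Of 31 genes on the list, 16 were in the table and 16 of 16 were higher in HC-L without overlap, beside 68.2% higher and 94.4% without overlap in the table. Their median log2 ratio was 1.89, beside 1.90 for all genes of the table higher in HC-L. HSP70.2, an inducible chaperone of the HSP70 family, was at 96338, 141755 and 33081 in the HC-L libraries against 2857, 7942 and 4707 in HC-P. HC-L library 3 was the lowest of HC-L and still above every HC-P library, and the log2 ratio was 4.13 ± 0.76. HSPA1L, a neighbouring close copy, had 2.69 ± 0.52, and reads may be shared between these copies, for which no source used here gives the counting rule.

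Among the co-chaperones that hand proteins to HSP70, DNAJA4 was the most even, at 3999.7, 4130.1 and 3832 in the HC-L libraries against 443, 315 and 405 in HC-P, with a log2 ratio of 3.36 ± 0.15. DNAJB1 was at 6134, 14523 and 4706 in the HC-L libraries against 958, 1677 and 1168 in HC-P, and HC-L library 2 was well above the others. DNAJA1 and DNAJB4 had ratios of 2.20 ± 0.54 and 2.13 ± 0.25. BAG3, which directs damaged filamin to autophagy together with HSPB8, was at 21182, 34161 and 14924 in the HC-L libraries against 5545, 7309 and 6305 in HC-P. The small heat shock proteins CRYAB, HSPB1, HSPB3 and HSPB8, which hold unfolding sarcomere proteins, had ratios of 1.90 ± 0.17, 1.39 ± 0.30, 1.89 ± 0.17 and 1.58 ± 0.27. HSP90AA1, HSPA8, HSPH1 and the transcription factor HSF2 had ratios from 1.32 to 1.94. The smallest difference of the list was that of HSPA13, at 327, 366 and 388 in the HC-L libraries against 175, 136 and 154 in HC-P. HC-L library 2 was the highest of HC-L in 13 of the 16 genes, and HC-P library 2 was the highest of HC-P in 12.

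**Figure D3:**
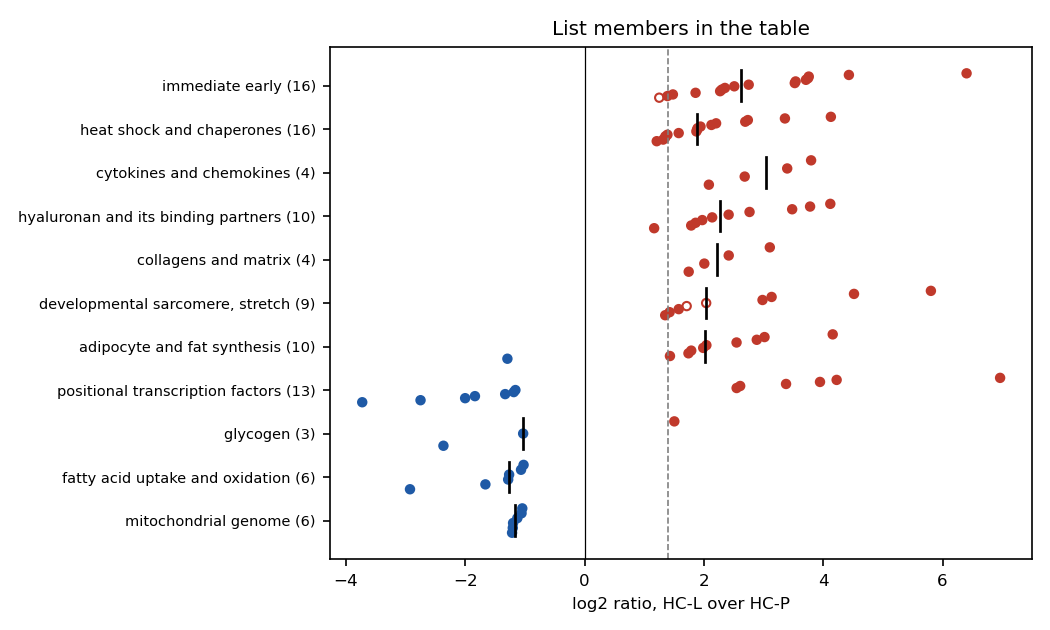
Points are the log2 ratios, HC-L over HC-P, of list members in the table, with the number drawn in brackets, red for higher in HC-L, blue for higher in HC-P and open where the groups overlap; black ticks are list medians, the dashed line is the median of the genes drawn from the whole table at 1.40, and the vertical offset within a row only separates points. Immediate early, heat shock and sarcomere genes lie on the right and mitochondrial and fatty acid genes on the left, while positional factors, drawn without members that had a group listed at 0 and without a median, lie on both sides.

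Hyaluronan is a long sugar polymer of the space between cells. A list of 10 genes that make, bind or trim its coat was put together from the table after their values had been seen. In this list 10 of 10 were higher in HC-L, beside 68.2% of the table, a share that the picking could set. HAS1 and HAS2, its synthases, were low, at 43.2, 10.9 and 6.35 in the HC-L libraries against 2.69, 0 and 0 in HC-P for HAS1 and at 67.3, 60.5 and 39.9 in the HC-L libraries against 21.5, 18.0 and 4.53 in HC-P for HAS2. PTX3, a pentraxin that cross-links it, was at 574, 285 and 455 in the HC-L libraries against 43.0, 20.1 and 29.9 in HC-P, with a log2 ratio of 3.78 ± 0.43. TNFAIP6, which transfers heavy chains onto it, had 1.79 ± 0.16, and the heavy chain genes ITIH1, ITIH3 and ITIH4 had 1.97 ± 0.71, 2.42 ± 0.45 and 2.14 ± 0.52. ADAMTS4, a protease of the proteoglycans that bind hyaluronan, was at 1316, 322 and 372 in the HC-L libraries against 77.9, 10.6 and 24.4 in HC-P, with library 1 the highest in each group. Its substrate versican (VCAN) had the smallest ratio of the list, 1.17 ± 0.26.

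Of 42 genes on a list of collagens and matrix, 4 were in the table, all higher in HC-L beside 68.2% of the table. Matrix genes outside that list also stood on the other side, such as the protease MMP11, at 208, 354 and 490.1 in the HC-L libraries against 854, 976 and 869 in HC-P. THBS1, thrombospondin, was at 9337, 8547 and 6012 in the HC-L libraries against 1945, 340.5 and 489 in HC-P. HC-P library 1 was the highest of its group and still below every HC-L library, and the log2 ratio was 3.11 ± 0.79. COL12A1 and COL6A6 had ratios of 1.75 ± 0.28 and 2.42 ± 0.57. None of the fibrillar collagen genes COL1A1, COL1A2 and COL3A1 was in the table.

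Of 22 cytokines and chemokines, 4 were in the table and 4 of 4 were higher in HC-L, beside 68.2% of the table. CCL2, which attracts monocytes, was at 221, 417 and 152 in the HC-L libraries against 13.4, 24.3 and 16.3 in HC-P. CXCL2, which attracts neutrophils, was at 489, 379 and 398 in the HC-L libraries against 65.4, 79.3 and 49.8 in HC-P, and CXCL8 was close to the lowest values in HC-P at 0.895, 1.06 and 0, against 11.0, 21.8 and 16.3 in HC-L. LIF, a cytokine that muscle releases, had a ratio of 2.08 ± 0.48. The receptor gene CSF3R, the only one of 16 macrophage and neutrophil genes in the table, was higher in HC-P, at 17.1, 14.5 and 24.5 in the HC-L libraries against 55.5, 40.2 and 62.5 in HC-P. Within the table no gene of the 27 on an interferon and antigen presentation list appeared.

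Growth factors and hormones, again gathered after their values had been seen, numbered 16. Of these, 12 or 75% were higher in HC-L beside 68.2% of the table, a share that the picking could set. HBEGF, a ligand of the EGF receptor, was at 3215, 5378 and 2238 in the HC-L libraries against 523, 608 and 246 in HC-P, and AREG, another ligand, was at 104, 93.1 and 9.98 in the HC-L libraries against 7.16, 4.23 and 2.72 in HC-P. ERRFI1, which inhibits that receptor, had a log2 ratio of 2.15 ± 0.54. GDNF, a survival factor for motor neurons, was at 877, 952 and 261 in the HC-L libraries against 106, 42.3 and 43.4 in HC-P, and GFRA3, a co-receptor of the same ligand family, had 2.41 ± 0.65. FGF6, a fibroblast growth factor of muscle, was at 449.9, 110.1 and 63.5 in the HC-L libraries against 54.6, 53.9 and 33.5 in HC-P, and its ratio of 2.11 was 0.86 without HC-L library 1. STC2, a stanniocalcin, had 2.39, and 1.298 without HC-L library 3. The vasodilator adrenomedullin (ADM) was more even, at 545, 844 and 659.8 in the HC-L libraries against 163, 124 and 113 in HC-P.

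The 4 members higher in HC-P were FGF1, VEGFB, CTF1 and NPR3. VEGFB, a vascular growth factor linked to fatty acid uptake, was at 822, 810.3 and 1424 in the HC-L libraries against 2808, 1906 and 1946 in HC-P, with a log2 ratio of -1.12 ± 0.32. NPR3, which clears natriuretic peptides, was at 9.04, 10.9 and 12.7 in the HC-L libraries against 25.1, 86.7 and 55.2 in HC-P. FGF1 and cardiotrophin CTF1 had ratios of -1.12 ± 0.34 and -1.15 ± 0.17.

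Of 5 genes of iron and oxidative stress, picked from the table after their values had been seen, 4 were higher in HC-L. The picking could set that share, given beside 68.2% of the table. TFRC, the receptor for iron uptake, was higher in HC-P at 1829, 2437 and 2579.5, against 819, 897 and 1074 in HC-L. HMOX1, which breaks down haem, had a log2 ratio of 1.69 ± 0.52, and SRXN1, which repairs oxidised peroxiredoxins, was at 1185, 912 and 1316 in the HC-L libraries against 211, 192 and 71.5 in HC-P. FTL, the light chain of the iron store ferritin, was at 233, 161 and 185 in the HC-L libraries against 5.37, 16.9 and 38.9 in HC-P, though ferritin has many processed copies and its reads could be divided among them.

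Transcription factors of body position were listed in both directions and with large ratios. Of 71 genes, 15 were in the table, 7 higher in HC-L and 8 higher in HC-P, beside 68.2% and 31.8% of the table. The HC-L side held zinc finger genes of the ZIC family and genes of the HOXC cluster. ZIC1 was at 283, 210.4 and 386 in the HC-L libraries against 0.895, 3.17 and 0 in HC-P, the largest ratio of any named gene higher in HC-L at 6.96 ± 0.65. ZIC4 was at 56.2, 62.9 and 164 in the HC-L libraries against 5.37, 4.23 and 2.72 in HC-P, and ZIC2 was at 9.04, 12.1 and 16.3 in the HC-L libraries against 0.895, 0 and 0 in HC-P, so that both were near the lowest values of the table in HC-P. HOXC8 was at 496, 489.8 and 99.8 in the HC-L libraries against 12.5, 37.0 and 18.1 in HC-P, with HC-L library 3 the lowest of HC-L and above all of HC-P, and HOXC6 had a ratio of 2.55 ± 0.75. HOXC5 was at 10.04, 14.5 and 82.6 in the HC-L libraries against 2.69, 4.23 and 8.15 in HC-P, and its ratio of 2.61 was 1.14 without HC-L library 3.

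On the HC-P side, TBX1, a T-box factor needed for muscles of the head, was at 290.2, 232 and 166 in the HC-L libraries against 3517, 2497 and 3127 in HC-P. The 3 libraries of each group lay close together, and the log2 ratio was -3.72 ± 0.27. IRX5, an Iroquois homeobox gene, was at 10.04, 13.3 and 42.7 in the HC-L libraries against 132, 134 and 195 in HC-P. The homeobox gene PITX3 was at 71.3, 23.0 and 209.6 in the HC-L libraries against 269, 307 and 649.9 in HC-P, with a ratio of -2.001 that was -3.09 without HC-L library 3. HOXC11 was listed at 0 in all HC-L libraries and was at 19.7, 23.3 and 20.8 in HC-P. HOXA7, HOXA3 and HOXA4 had ratios of -1.84 ± 0.81, -1.16 ± 0.17 and -1.19 ± 0.18. The most negative ratio of the whole table belonged to an unnamed gene (ENSSSCG00000036741) that the deposited description places in the Pitx homeobox family. It was at 7.03, 1.21 and 8.17 in the HC-L libraries against 1619, 1284 and 1323 in HC-P, nearly silent in every HC-L library and abundant in every HC-P library, with a ratio of -7.77 ± 0.66.

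Some genes with large ratios belong to none of these groups. NTSR2, a receptor for the peptide neurotensin, was at 438, 1379.9 and 425 in the HC-L libraries against 22.4, 25.4 and 24.4 in HC-P, with a log2 ratio of 4.90 ± 0.56. IL22RA1, a subunit of the interleukin-22 receptor, was at 127, 82.2 and 12.7 in the HC-L libraries against 3.58, 2.11 and 0 in HC-P, and KIF24, a kinesin of the centriole, was at 143, 12.1 and 371 in the HC-L libraries against 6.27, 5.29 and 7.24 in HC-P, with its HC-L libraries widely apart. PEG10, an imprinted gene derived from a retroelement, was at 777, 4231 and 749.6 in the HC-L libraries against 201, 130.1 and 66.98 in HC-P, and its ratio of 3.84 was 2.51 without HC-L library 2. DUOX1, an enzyme that makes hydrogen peroxide, was the gene with a symbol and the most negative ratio, at 1.004, 1.21 and 1.82 in the HC-L libraries against 32.2, 108 and 47.1 in HC-P, a ratio of -4.76 ± 0.53. ZFP57, which guards imprinted methylation, and MOG, best known as a myelin protein, were both higher in HC-P with ratios of -3.20 ± 0.79 and -2.85 ± 0.26. At the other end of the range, HNRNPA3, ZBED1 and GLIPR2 had the smallest differences, with ratios of 0.998 ± 0.23, -1.001 ± 0.21 and 1.004 ± 0.28.

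Libraries of a group differed from each other by gene group rather than evenly. The deviation of a library was taken as its log2 value minus the mean of its group, and its median over all 522 genes stayed between -0.10 and 0.14. Over the 16 immediate early genes the median deviation was 0.49 in HC-L library 1 and -0.67 in HC-L library 3, and it was 0.63 in HC-P library 1. Over the 10 fat genes it was 0.77 in HC-L library 2, and over the 6 fatty acid oxidation genes it was 0.71 in HC-L library 3. The 6 mitochondrial genes deviated by 0.42 in HC-P library 1 and by -0.55 in HC-P library 3. For single genes, leaving out any library moved the log2 ratio by more than 1.5 times in 44 of 522 genes and changed the direction of 0. Some genes had HC-L libraries far apart and overlapping groups. FDXACB1 was at 347, 105 and 11.8 in the HC-L libraries against 32.2, 21.1 and 24.4 in HC-P, so that HC-L library 3 lay below every HC-P library. Its ratio of 2.53 was 1.14 without HC-L library 1. IGSF9B was at 243, 132 and 18.2 in the HC-L libraries against 12.5, 31.7 and 35.3 in HC-P, with HC-L library 3 inside the HC-P range. Its ratio of 2.26 was 1.47 without HC-L library 1.

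**Figure D4:**
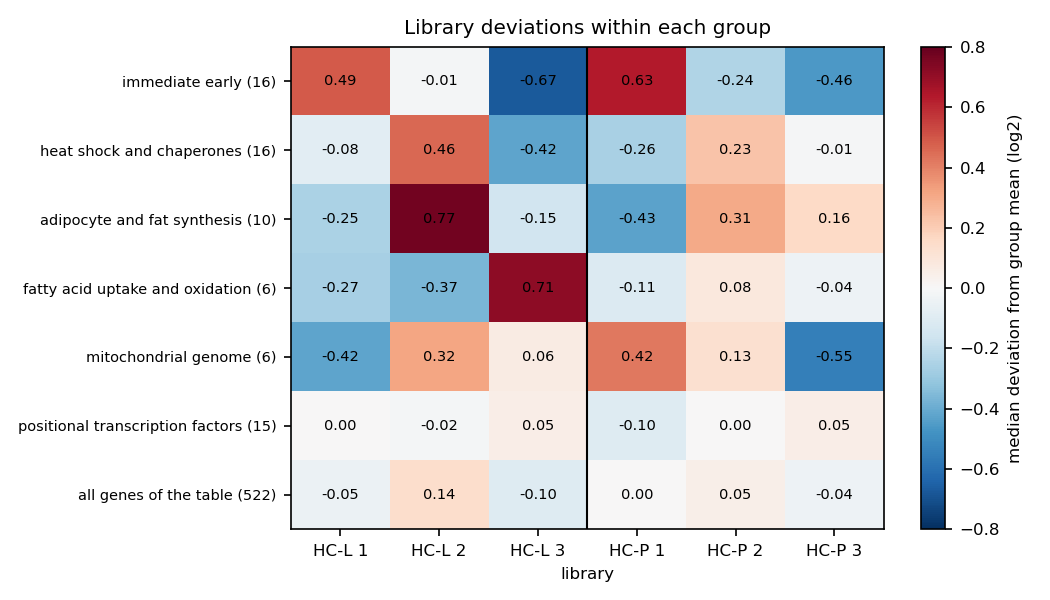
Rows are gene lists with the number of members in the table, columns are the 6 libraries, and colour and printed number are the median deviation of a library from the mean of its own group in log2 units. HC-L library 2 is highest for fat genes at 0.77 and HC-L library 3 for fatty acid oxidation at 0.71, whereas the row for all 522 genes stays between -0.10 and 0.14.

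Some neighbouring genes appeared in the table together. Protein-coding genes were ordered by their start in the RefSeq annotation of Sscrofa11.1, in which 410 of the genes were found. Where gene models overlap, as in the HOXA cluster, the next start is not always the next gene of the cluster. In that order 31 pairs of next neighbours were both in the table. Of these pairs 29 had the same direction, 22 higher in HC-L and 7 higher in HC-P. The table had 68.2% of its genes higher in HC-L, which is a share of single genes and not of pairs. Pairs in a run share genes, and the number of agreeing pairs to be expected was not computed. A run of 6 neighbours was higher in HC-L, with log2 ratios of 3.92 for MMP25, 3.84 for BICDL2, 2.31 for THOC6, 1.45 for HCFC1R1, 1.41 for TNFRSF12A and 3.997 for CLDN6. TNFRSF12A, the receptor for the cytokine TWEAK, was at 1767, 3651 and 4289 in the HC-L libraries against 1406, 1686 and 561 in HC-P, and CLDN6, a tight junction protein, was at 52.2, 39.9 and 12.7 in the HC-L libraries against 1.79, 1.06 and 0.905 in HC-P. In the first 5 of that run, HC-L library 1 was the lowest of HC-L.

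Several muscle genes stood beside each other. KLHL40 neighboured HHATL, which was at 27013, 35579.7 and 21024 in the HC-L libraries against 4383, 5070.4 and 2687 in HC-P, and XIRP1 neighboured the immediate early gene CSRNP1, with ratios of 3.13 and 2.75. NRAP neighboured HABP2, a hyaluronan-binding protease, with 1.84 and 2.77. ARID5B and RTKN2 had 2.40 and 4.37. The pairs in opposite directions were SGO2 with AOX1 and NPEPL1 with GNAS. SGO2, a protector of chromosome cohesion, had -1.44, and AOX1, aldehyde oxidase, had 2.21, or 1.17 without HC-L library 1. NPEPL1 had 2.51 and the G protein subunit gene GNAS had -1.20. No source used here gives whether reads were counted by strand or how reads in overlapping neighbours were assigned, so reads that run past the end of a gene into the next cannot be told apart from the next gene's own.

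**Figure D5:**
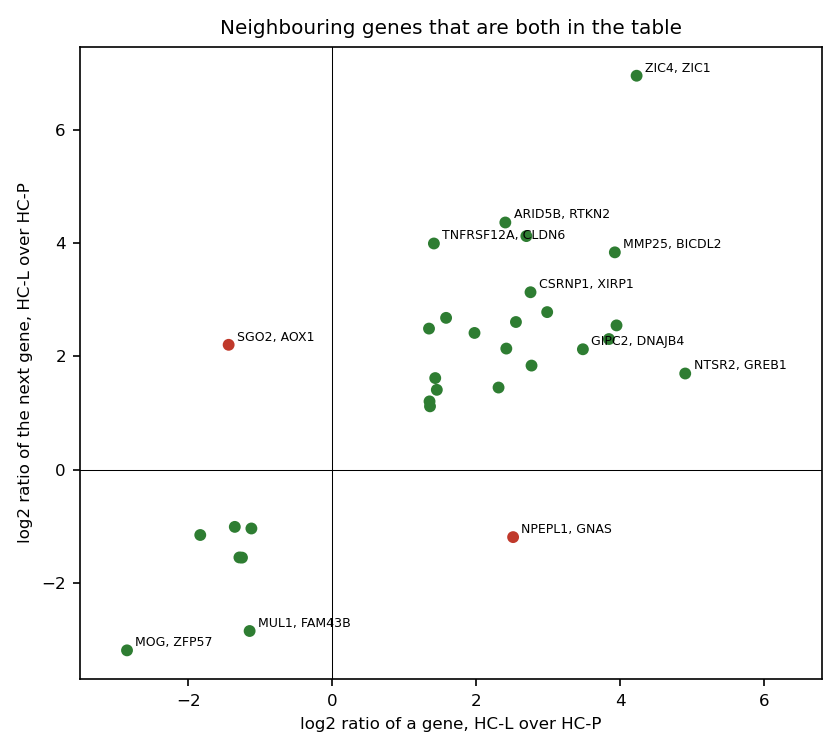
Each point is a pair of neighbouring protein-coding genes that are both in the table, with the log2 ratio of HC-L over HC-P of the earlier gene on the horizontal axis and that of the next gene on the vertical axis, green where the direction is shared and red where it is opposite. There are 22 pairs in the upper right, 7 in the lower left and 2 in the other quadrants.

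The authors also attached names of related miRNAs to 320 genes, or 61.3% of the table. Genes higher in HC-L carried at least a single name in 63.2% of cases and genes higher in HC-P in 57.2%, with a median of 6 names per such gene and up to 89. Of the 244 names used, 74 are miRNAs predicted by the authors. The name attached most often, that of a predicted miRNA, was given to 173 genes, 96 higher in HC-L and 77 higher in HC-P. miR-326 was attached to 65 genes, 52 of them higher in HC-L and 13 higher in HC-P, and miR-4331-3p to 65, with 48 and 17. These are 80.0% and 73.8% higher in HC-L, beside 68.2% of the table. Of all 320 genes with a name, 225 were higher in HC-L and 95 higher in HC-P. The name of another predicted miRNA was attached to 66 genes, 30 higher in HC-L and 36 higher in HC-P. No source used here gives the rule by which these names were attached.

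Genes without a symbol made up 93 of the 522, including 32 transcripts that carry only a number given by the authors. They leaned less to HC-L, 60.2% against 68.2% of the table, and had a larger median absolute log2 ratio of 2.17. Among these numbered transcripts, the most negative ratio was that of a transcript at 2.01, 2.42 and 0 in the HC-L libraries against 233, 301 and 208 in HC-P, close to silent in HC-L, and it was -6.65 ± 0.58. An unnamed gene described as ribosomal protein L31e (ENSSSCG00000008170) was at 2544, 1786 and 1576 in the HC-L libraries against 80.6, 53.9 and 209 in HC-P, and the named ribosomal genes RPS29, RPL23A and RPL37 were higher in HC-L with ratios of 1.80 ± 0.73, 1.42 ± 0.53 and 1.01 ± 0.31. Ribosomal protein genes have many processed copies, and reads could be divided among them.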

How the data were processed

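Muscle mRNA was measured in 3 HC-L and 3 HC-P libraries, and RNA was extracted with Trizol and sequenced by a service provider, per the labels' protocols. The authors deposited a normalised signal for each gene and library. All values of a column were multiples of its smallest value within 0.02 steps, as read counts scaled by 1 factor would be. Beside it the authors deposited a log2 fold change with its p-value, raw and adjusted. No source used here gives the aligner, genome build, counting rule or test. Only selected genes are listed, so library depth is unknown. No counting interval is given.

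Columns were assigned to groups, not to samples, and errors measure only the spread between these libraries. Ratios used a pseudocount of 1, with Python 3.11.15, pandas 2.3.3, numpy 2.4.6 and matplotlib 3.10.9, and ran through a check on simulated data. The recomputed direction equalled that of the authors' deposited table for 522 of 522 genes, with a median difference of 0.00785 in log2, and 29 of the 31 genes that differed by over 0.5 had a mean under 50. Symbols came from the deposited descriptions or the reference name table, which held 406 identifiers. In all 429 genes were named, and 5 had different symbols in these sources. RefSeq was used only for names and gene order. No sequences are shown.

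Named genes were the 12 largest without overlap in each direction, the 10 highest in level, up to 6 of each list, the 5 farthest from their group in each library and the 3 smallest; others were named after their values had been seen. Some members that these rules name are not reported here. The members and lists were chosen with earlier results of these data known. No test was run, since the table was selected by this contrast. Libraries share numbers in the column names, and over 423 genes with a mean of at least 50 the deviations of same-numbered libraries correlated at 0.252, 0.332 and 0.202, whereas other pairs gave -0.192 to -0.0784. Alternatives were other pseudocounts, log2 means, a level minimum, a rescaling, the replicate block and leaving out each library.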

Additional observations from a re-analysis of the deposited data

How the results depend on the processing

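The split of 356 genes higher in HC-L and 166 higher in HC-P was the same without any of the 6 libraries and under the pseudocounts, and genes with a mean of at least 50 gave 292 and 131. The replicate block by the numbers in the column names averages the same-numbered log2 differences. That average equals the difference of group means of log2 values however the libraries are paired. Its 356 and 166 and its median absolute log2 ratio of 1.66 therefore cannot show whether the pairing matters. All 3 same-numbered ratios were in the direction of the gene for 514 genes. The median absolute log2 ratio of 1.75 ranged from 1.58 to 1.78 with a library left out, was 1.61 and 1.76 with pseudocounts of 5 and 0.1, and was 1.54 for genes with a mean of at least 50. The count of genes without overlap, 493, ranged from 494 to 514 with a library left out, where fewer libraries are compared. Rescaling by the median of ratios over the table, which assumes that listed genes balance, moved the median log2 ratio from 1.41 to 0.32, the split to 336 and 186, the median absolute ratio to 1.52 and the count without overlap to 292. It turned GLIPR2 to -0.0551, HNRNPA3 to -0.0572 and RPL37 to -0.0803, and no other of 213 named genes, but in all 192 of their ratios and 17 of 17 list medians moved by more than their spread. The genes higher in HC-P were all 166 without overlap, as were 126 of those higher in HC-L. List medians became 1.54 for immediate early, 0.80 for heat shock, 1.03 for sarcomere, 0.86 for fat synthesis, -2.28 for fatty acid oxidation and -2.25 for mitochondrial genes, with unchanged signs. Members without overlap fell from 15 to 7 for immediate early, from 16 to 11 for heat shock and from 7 to 5 for sarcomere genes. They fell from 10 to 7 for fat synthesis and stayed at 6 for fatty acid oxidation and at 6 for mitochondrial genes. No other setting turned a direction. A count-based test was planned, with and without the block. It was not run, because the table was already selected by this contrast. All values of a column were multiples of its smallest value within 0.02 steps, but whole reads were not taken as recovered. The depth is unknown. No counting interval was computed, so the counting error of low values such as those of HAS1 or ZIC2 is not given.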
